A study of Homo sapiens with 6 samples.

Results

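The BCL2 family of apoptosis regulators was described here through 10 member genes in SKOV3 cells, an established human ovarian cancer cell line. The members were the survival genes BCL2, BCL2L1 and MCL1, the effector genes BAX and BAK1, and the BH3-only genes BBC3, PMAIP1, BCL2L11, BID and BAD. They were fixed by name, and every array probe whose sequence matched a sense transcript of one of them without mismatch was taken, since the gene name field of the arrays repeated the probe's own name. This gave 22 probes of 125601, with 1 to 3 probes for each gene. The data came from 6 single-color Agilent arrays, 3 labelled 1α,25(OH)2D3 (the hormonally active form of vitamin D, 100 nmol/L for 72 h) and 3 labelled vehicle (ethanol alone, for the same time). All 6 arrays were described as RNA of 1 line, which the methods name SKOV3 while the sample titles read SKOV-1. Nothing in the sources said whether replicates were separate cultures, so the p-values may measure technical spread only. Labelled cRNA made from total RNA was hybridised, so the arrays measured mRNA and neither the proteins nor apoptosis itself, and fewer expressing cells could not be told apart from less RNA per cell.

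Proteins of this family decide whether the outer membrane of the mitochondrion stays intact. The survival proteins hold the pore-forming effectors BAX and BAK1 in check, and the BH3-only proteins respond to stress by binding survival proteins or by switching on the effectors, after which cytochrome c escapes and caspases are activated. Several members are regulated largely at the protein level, by cleavage, phosphorylation or rapid degradation, which mRNA does not show. Vitamin D has long been studied for effects on the growth and death of cancer cells, and the comparison of the labels asked whether mRNA of these regulators differed between treated and vehicle cells.

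The labels themselves were checked first with CYP24A1, the enzyme that degrades 1α,25(OH)2D3 and a classical target of the vitamin D receptor. Its probe A_23_P28815 (hg38 chr20:54154407-54154466, minus strand, 3′ UTR in exon 12) had deposited log2 intensities of 2.23, 13.84 and 3.30 on the 3 arrays of the 1α,25(OH)2D3 label, in replicate order, and of 14.18, 4.75 and 14.34 on those of the vehicle label. Values below are given in the same order. CYP24A1 was therefore bright on 1 array labelled 1α,25(OH)2D3 and on 2 labelled vehicle, against the labels of 4 arrays. Without those 4 arrays 1 array per label would remain and no test, so every direction below is a direction between labels, and each array's own value is given. Whether array labels were exchanged was not tested, and an exchange would change what each signed difference means. Of the 1α,25(OH)2D3 label, replicates 1 and 2 were on slide 1, while replicate 3 was on slide 2 together with all vehicle arrays. All 6 epithelial markers (KRT7, KRT8, KRT18, KRT19, EPCAM, ERBB2) were well above background on every array. Their mean log2 intensity lay between 12.3 and 12.5, but KRT18 alone read 6.88 to 7.62, which overlapped the leukocyte and endothelial means. The 4 leukocyte and 3 endothelial markers, which this line should lack, were well above background on every array too, at means between 7.02 and 7.31 and between 7.13 and 7.77. The leukocyte means were 7.02 to 7.31 under the 1α,25(OH)2D3 label and 7.04 to 7.13 under the vehicle label. The flag for background was therefore also met by genes that such cells are not known to express, and it was not read as evidence of expression.

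Probe sequences are shown for the probes that lay wholly in coding sequence, 5′ to 3′ in the sense of the mRNA, because they show which form of a member was read. All positions are on hg38, from the match of the probes to GENCODE release 44. The BCL2 probe read exon 2 of 3, which 3 of the 5 coding transcripts hold at this site (chr18:63318168-63318227, minus strand). The PMAIP1 probe read exon 2 of 3 of PMAIP1-201, an exon that the canonical transcript PMAIP1-202 skips and the retained-intron transcript PMAIP1-203 also holds (chr18:59900477-59900536, plus strand). Both BAD probes read exon 3 of BAD-202, which the canonical transcript lacks: one lay within it (chr11:64276956-64277015, minus strand) and the other ran across the junction of exons 2 and 3 (within chr11:64276993-64284190). Capitals mark the 23 bases that the BAD probes share, so these are not independent readings.
BCL2 A_33_P3355185: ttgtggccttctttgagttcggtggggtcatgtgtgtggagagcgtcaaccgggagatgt
PMAIP1 OEV5_51222: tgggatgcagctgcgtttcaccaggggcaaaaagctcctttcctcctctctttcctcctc
BAD A_33_P3402076: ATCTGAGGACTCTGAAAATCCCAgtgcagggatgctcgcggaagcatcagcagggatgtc
BAD OEV5_27088: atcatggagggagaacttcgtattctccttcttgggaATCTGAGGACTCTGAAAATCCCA

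Of the 22 probes, 15 lay in a 3′ UTR and 4 in coding sequence, and 9 were outside the canonical transcript of their gene at least in part. None matched a transcript of another gene exactly. In all, 17 probes were well above background on all 6 arrays, 3 on some and 2 on none, and each of the 10 genes had a probe above background on all 6. The filter on background, which asked for all 3 arrays of at least 1 label, left 19 member probes among 63336 tested. For each gene the brightest probe that passed is called its main probe. Values of different probes were not compared with each other, since brightness also depends on the probe.

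**Figure D1:**
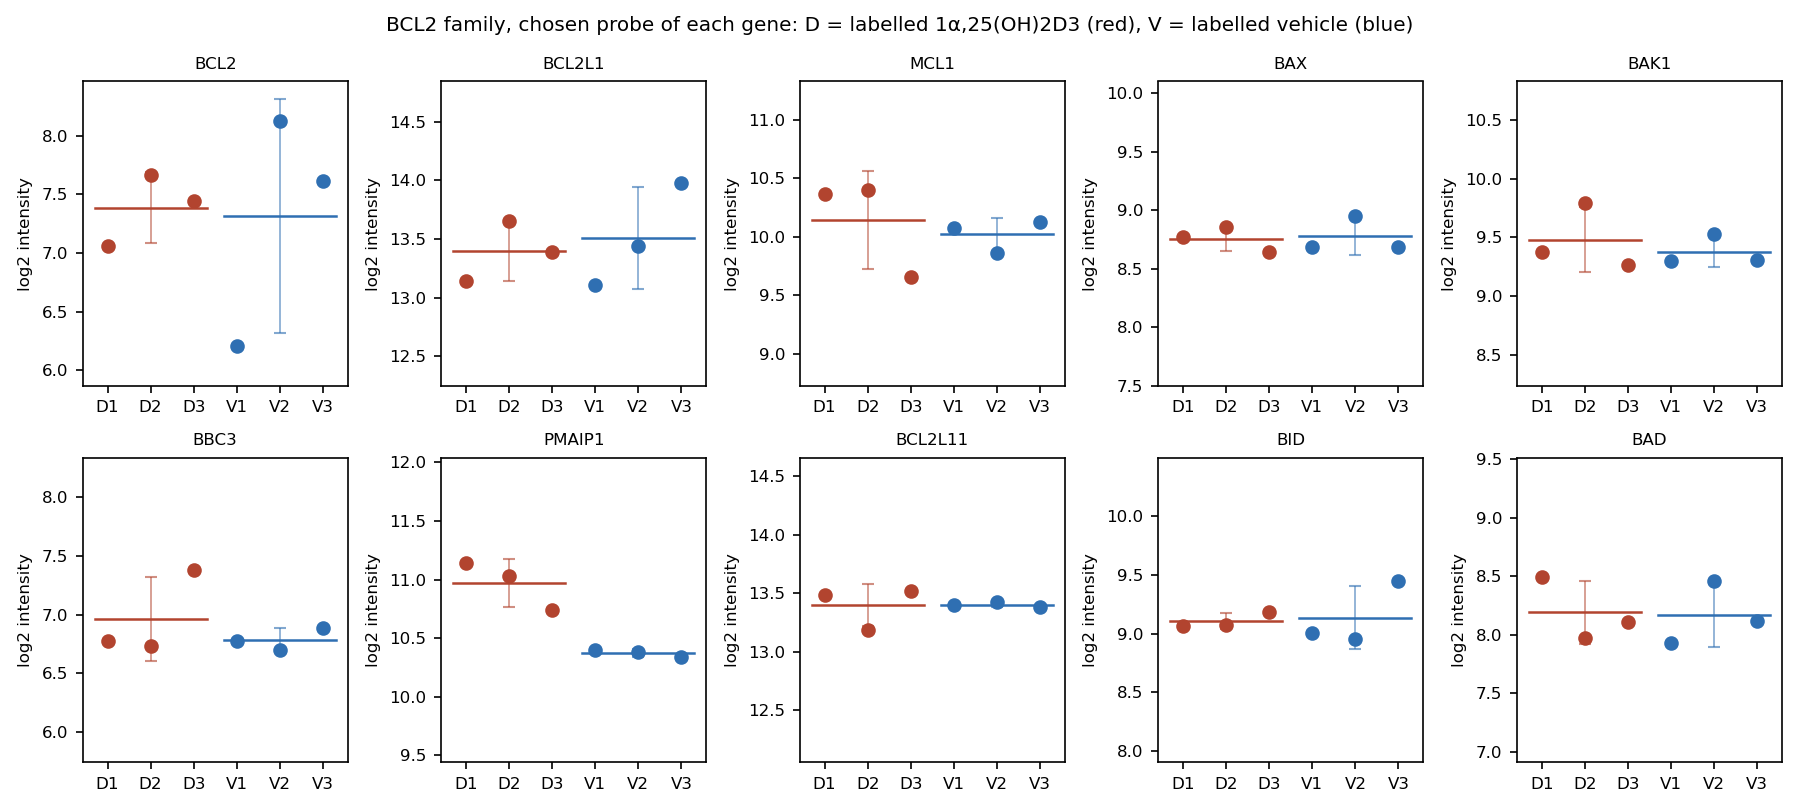
Deposited log2 intensity of the main probe of each of the 10 genes on each array (D, labelled 1α,25(OH)2D3, red; V, labelled vehicle, blue; 1 point per array, all well above background). Horizontal lines are the means of 3 arrays and vertical bars the SD, and each vertical axis spans the same number of log2 units, so that the wide spread of BCL2 and the separated PMAIP1 groups can be seen beside the close values of BAX.

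Among the survival genes, no difference between the labels exceeded the spread of the arrays. BCL2, the founding member, keeps cells alive by binding BH3-only proteins and effectors. Its main probe read 7.06, 7.66 and 7.45 under the 1α,25(OH)2D3 label and 6.20, 8.13 and 7.62 under the vehicle label. The highest and the lowest array thus both carried the vehicle label, and the range of 1.92 was the widest of the 10 main probes. The means were 7.39 ± 0.31 and 7.32 ± 1.00 (SD, n = 3), and the log2 fold change was 0.07 (95% interval −0.99 to 1.14, limma, unadjusted p = 0.878). It turned to −0.48 without the array labelled vehicle replicate 1 and to −0.06 without 1α,25(OH)2D3 replicate 2. Without vehicle replicate 2 it was 0.48.

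A second BCL2 probe, OEV5_74708 (chr18:63313834-63313893), lay in intron 2 of the canonical transcript, in the 3′ UTR of BCL2-203. It read 5.70, 5.70 and 5.15 against 4.45, 6.36 and 6.03, and only the array labelled vehicle replicate 1 was not well above background. The lowest array and the highest array of this probe were those of the main probe, and its log2 fold change was −0.09 (SE 0.469). The third probe, A_23_P352266, in the 3′ UTR of exon 3 near the far end of the gene (chr18:63123490-63123549), reached the background threshold on no array, at readings of 2.26 to 3.73.

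BCL2L1, which encodes the survival protein BCL-XL and by alternative splicing the shorter BCL-XS, was read by 1 probe in the 3′ UTR of exon 3 (A_23_P210886, chr20:31665521-31665580). The probe matched 12 of the 13 coding transcripts. It read 13.14, 13.66 and 13.39 under the 1α,25(OH)2D3 label and 13.11, 13.44 and 13.98 under the vehicle label, so the groups overlapped. The label difference was a log2 fold change of −0.11 (95% interval −0.70 to 0.48, limma, unadjusted p = 0.666).

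MCL1 encodes a survival protein that is made and destroyed within short times and that NOXA, the product of PMAIP1, binds. Its main probe in the 3′ UTR of exon 3 (A_24_P336759, chr1:150575146-150575205) read 10.37, 10.40 and 9.66 against 10.07, 9.87 and 10.13. 1α,25(OH)2D3 replicate 3 was the lowest of all 6 and the other 2 arrays of that label were the highest. This gave a log2 fold change of 0.12 (95% interval −0.42 to 0.66, limma, unadjusted p = 0.616). Those 2 highest arrays were the 2 on slide 1, and within slide 2 the difference was −0.36. The second probe, OEV5_52213 (chr1:150574365-150574423), read the 3′ UTR of MCL1-207. Its log2 fold change was −0.08 (SE 0.217).

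BAX had steady values at both of its probes, with an SD over the 6 arrays of 0.120 and 0.113. BAX, which moves from the cytosol to mitochondria to form pores, read 8.77, 8.86 and 8.64 under the 1α,25(OH)2D3 label and 8.68, 8.95 and 8.69 under the vehicle label at its main probe (A_33_P3341144, chr19:48961197-48961256). That probe lay in intron 5 of the canonical transcript, in the 3′ UTR of BAX-201. The groups overlapped within a range of 0.31, and the log2 fold change was −0.02 (95% interval −0.39 to 0.35, limma, unadjusted p = 0.910). The probe in exon 6 of the canonical transcript (A_23_P208706, chr19:48961647-48961706) read 7.39, 7.42 and 7.19 against 7.18, 7.27 and 7.15. Its log2 fold change was 0.13 (95% interval −0.21 to 0.48).

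BAK1, the effector that resides in the outer mitochondrial membrane, was read in the 3′ UTR of exon 6 (A_23_P145357, chr6:33572808-33572867). Its values were 9.37, 9.80 and 9.27 against 9.30, 9.53 and 9.31. The highest array was labelled 1α,25(OH)2D3 and so was the lowest, and the log2 fold change was 0.10 (95% interval −0.34 to 0.54, limma, unadjusted p = 0.606). The same 60 bases also occur at chr20:32689185-32689244, so signal from that copy could not be told apart from BAK1.

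Among the BH3-only genes, the arrays of the labels did not overlap for the PMAIP1 probes and for 1 probe of BBC3, which passed the filter only through the label where it was higher. PMAIP1 encodes NOXA, which binds MCL1 and is a known target of the integrated stress response. Its main probe, OEV5_51222, whose sequence is printed above, read 11.14, 11.03 and 10.74 under the 1α,25(OH)2D3 label and 10.40, 10.38 and 10.34 under the vehicle label. Every array labelled 1α,25(OH)2D3 was above every array labelled vehicle. The means were 10.97 ± 0.21 and 10.37 ± 0.03 (SD, n = 3), a log2 fold change of 0.60 (SE 0.162, 95% interval 0.22 to 0.97), which is 1.51-fold. By limma the unadjusted p was 0.00689, the lowest among the members, and the p with Benjamini-Hochberg adjustment over all probes was 0.701.

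The second PMAIP1 probe, A_33_P3619171 (chr18:59903459-59903518), lay in the 3′ UTR of the last exon, which both coding transcripts share. It read 9.22, 8.84 and 9.59 against 8.79, 8.35 and 8.56, and again the groups did not overlap. The log2 fold change was 0.65 (SE 0.227, 95% interval 0.12 to 1.18), which is 1.57-fold, with an unadjusted p of 0.0220 and a Benjamini-Hochberg adjusted p of 0.701 by limma. The order within the label differed between the probes: 1α,25(OH)2D3 replicate 3 was the lowest of its label in OEV5_51222 and the highest in A_33_P3619171. The 3 arrays that were highest for PMAIP1 had CYP24A1 at 2.23, 13.84 and 3.30, so they did not share a CYP24A1 level.

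**Figure D2:**
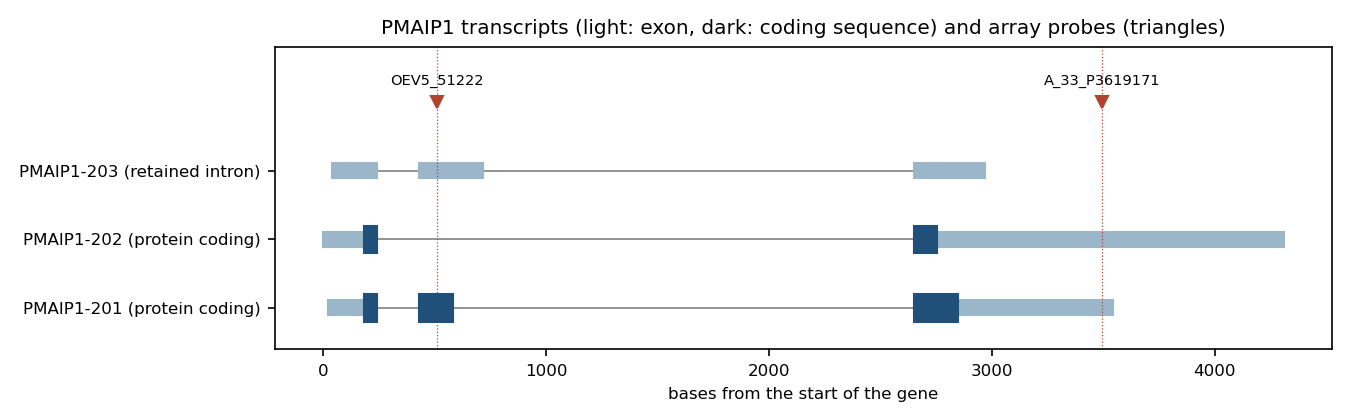
Map of PMAIP1 to scale, in bases from the start of the gene, with its 3 annotated transcripts (light boxes, exons; dark boxes, coding sequence) and the centres of its 2 probes (triangles). OEV5_51222 falls in the exon that PMAIP1-202 skips, and A_33_P3619171 falls in the last exon of PMAIP1-201 and PMAIP1-202.

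With slide as a block the label difference rests on 1 array, 1α,25(OH)2D3 replicate 3, against the vehicle arrays of slide 2, and that lone array is assumed to vary like the others. The value was then 0.37 at OEV5_51222 (limma, unadjusted p = 0.0799) and 1.03 at A_33_P3619171, and whether slide had a part was not tested. Leaving out 1 array at a time gave 0.51 to 0.71 for OEV5_51222, with every unadjusted p at most 0.0304. For A_33_P3619171 it gave 0.47 to 0.84, and the unadjusted p rose above 0.05 without 1α,25(OH)2D3 replicate 1 (0.0541) or 3 (0.0637) and without vehicle replicate 2 (0.0738) or 3 (0.0512). The methods' t-test also ended that call, but not that of OEV5_51222.

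BBC3 encodes PUMA, a BH3-only protein that binds all survival members. Its main probe, in the 3′ UTR of exon 4 (A_23_P382775, chr19:47220917-47220976, the mean of 10 spots), read 6.78, 6.73 and 7.38 against 6.77, 6.70 and 6.89. On 1α,25(OH)2D3 replicate 3 the probe stood above the rest and the other 5 lay close together. The log2 fold change was 0.18 (95% interval −0.31 to 0.66, limma, unadjusted p = 0.420), and −0.03 without that array. Within slide 2, where that array is the only one of its label, the difference was 0.59, a value that rests on that 1 array (limma with slide as a block, unadjusted p = 0.0174).

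A second BBC3 probe, OEV5_31022, lay in intron 3 of the canonical transcript (chr19:47222485-47222544) and matched only BBC3-206, a transcript without coding sequence. This probe passed the filter only through the arrays where it was bright, so its difference had to be present and its p is given as a description. It read 4.39, 4.54 and 5.37 under the 1α,25(OH)2D3 label, well above background on all 3 arrays. Under the vehicle label it read 3.82, 3.18 and 4.37, and no array was well above background. The groups did not overlap, but vehicle replicate 3, at 4.37, lay just below the lowest array of the other label, at 4.39. With each vehicle reading raised to the dimmest signal called above background on its array, the 1α,25(OH)2D3 mean was 1.33-fold higher. That value holds for the deposited log2 values only. The limma log2 fold change was 0.97 (95% interval 0.14 to 1.81, unadjusted p = 0.0282, Benjamini-Hochberg adjusted p = 0.701). With normexp background correction the log2 fold change was 0.22 (limma, unadjusted p = 0.0939), and without 1α,25(OH)2D3 replicate 3 it was 0.67 (unadjusted p = 0.103). The unadjusted limma p also rose above 0.05 without vehicle replicate 1 (0.0527) or 2 (0.0901), and the methods' t-test ended the call. Within slide 2 it was 1.58. The third probe, OEV5_49209 in intron 2 (chr19:47226829-47226888), reached the background threshold on no array.

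**Figure D3:**
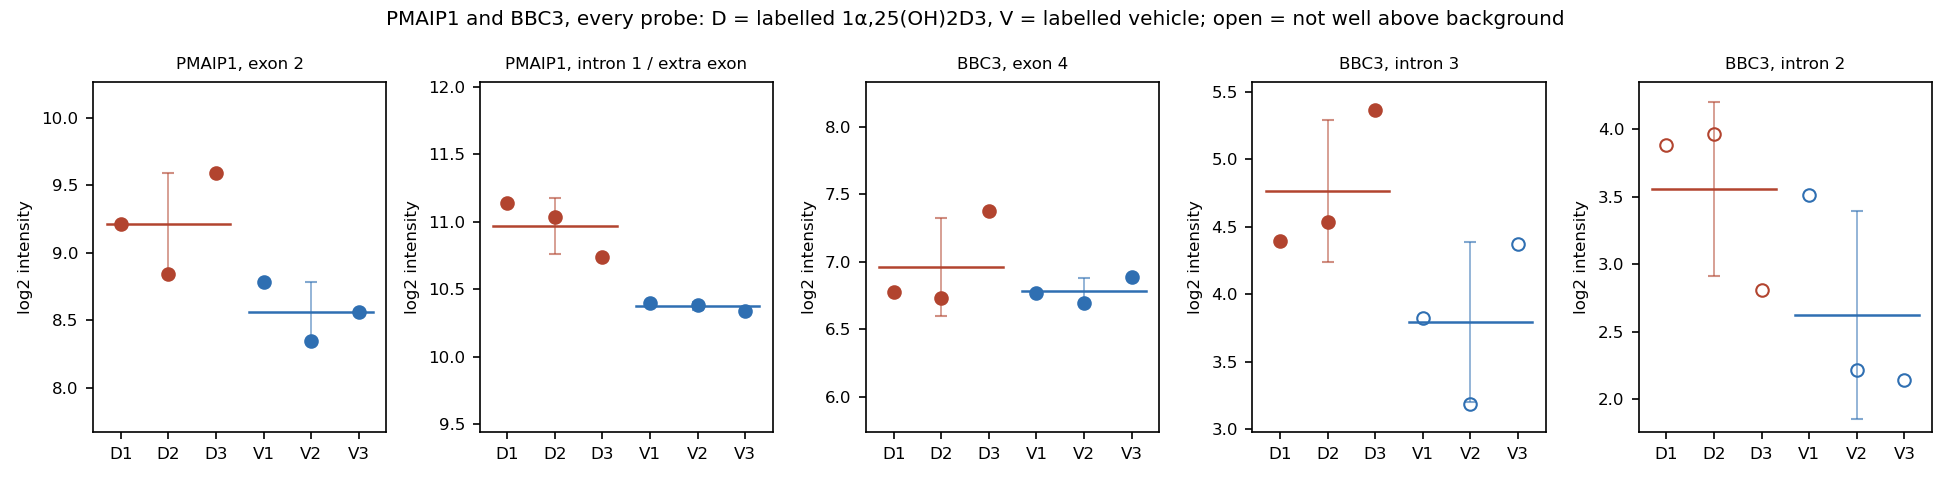
Deposited log2 intensity of the 2 PMAIP1 and 3 BBC3 probes on each array (D, labelled 1α,25(OH)2D3; V, labelled vehicle; lines, mean of 3 arrays; bars, SD; open circles, not well above background). The groups are apart in both PMAIP1 probes, overlap in exon 4 of BBC3, and come close in intron 3 of BBC3 (4.37 against 4.39), where all vehicle arrays are open.

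BCL2L11 encodes BIM, which binds all survival proteins and can activate BAX and BAK1. Its main probe (A_33_P3251932, chr2:111128775-111128834, the mean of 10 spots) lay in intron 2 of the canonical transcript, in the 3′ UTR of BCL2L11-205. It read 13.49, 13.19 and 13.52 against 13.40, 13.42 and 13.38, with a log2 fold change of −0.00 (95% interval −0.37 to 0.36, limma, unadjusted p = 0.987). The probe in the 5′ UTR of exon 1 (A_33_P3398526, chr2:111121128-111121187) read 9.08, 9.20 and 9.67 against 9.61, 9.58 and 9.36. Its log2 fold change was −0.20 (95% interval −0.66 to 0.26). The third probe, in the 3′ UTR of the last canonical exon (A_24_P122921, chr2:111168315-111168374), was well above background on 4 arrays, 2 of each label, and was not tested.

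BID, which caspase-8 cleaves to link death receptors to mitochondria, was read by 2 probes a short way apart in the 3′ UTR of exon 6. The main probe (A_33_P3227041, chr22:17735499-17735558) read 9.06, 9.08 and 9.18 against 9.01, 8.95 and 9.45, with a log2 fold change of −0.03 (95% interval −0.45 to 0.39). The second probe (A_24_P187948, chr22:17735416-17735475) read 8.37, 8.53 and 8.75 against 8.70, 8.66 and 8.98, with a log2 fold change of −0.23 (95% interval −0.64 to 0.17, limma, unadjusted p = 0.220). Vehicle replicate 3 was the highest array for both probes, and the groups overlapped for both.

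BAD, which growth factor signalling switches off by phosphorylation, read 8.49, 7.97 and 8.11 against 7.93, 8.46 and 8.11 at its main probe in the 3′ UTR of exon 4 (A_33_P3262043, chr11:64270011-64270070). A log2 fold change of 0.02 resulted (95% interval −0.47 to 0.51). The probes of exon 3 of BAD-202, printed above, read 5.32, 5.34 and 6.20 against 5.97, 6.37 and 5.53 (A_33_P3402076), and 4.87, 5.17 and 5.28 against 5.33, 5.94 and 5.21 (OEV5_27088). Vehicle replicate 2 was the highest and 1α,25(OH)2D3 replicate 1 the lowest array for both. Their log2 fold changes were −0.33 (SE 0.307) and −0.38 (SE 0.231, limma, unadjusted p = 0.138), and the groups overlapped.

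**Figure D4:**
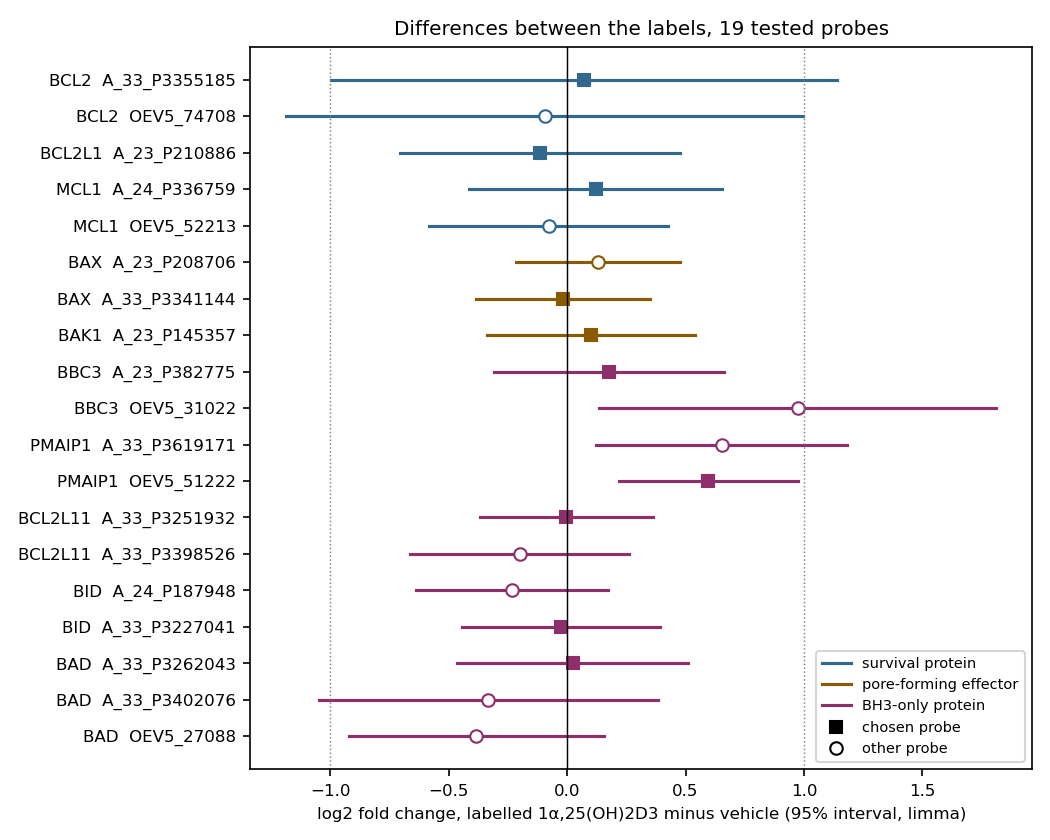
Log2 fold change, labelled 1α,25(OH)2D3 minus labelled vehicle, with its 95% interval from limma for the 19 tested probes, in order of role (squares, main probe; circles, other probes; dotted lines, a 2-fold change). The intervals of both PMAIP1 probes and of the intron 3 probe of BBC3 lie above 0, and the other 16 include 0. The BBC3 probe passed the filter only through the label where it was higher, so its interval is a description.

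Over the 19 tested probes, 9 log2 fold changes were positive and 10 negative. Their median was −0.00, as it was for all 63336 probes, and the median size was 0.12, beside 0.18 over all probes. The median SD over the 6 arrays was 0.258, beside 0.263. The 3 probes of PMAIP1 and BBC3 were those with an unadjusted limma p under 0.05 and a higher level under the 1α,25(OH)2D3 label, where 4.00% of all tested probes met that rule. The BBC3 probe had passed the filter only through that label, and with a filter on all 6 arrays the count was 2, both of PMAIP1. Members lower by the same rule numbered 0, where 2.76% of all did. The groups did not overlap for the same 3 probes, in the direction that 7.03% of all probes showed, and no member separated in the other direction, which 5.18% of all showed. No member combined an unadjusted p under 0.05 with a change of more than 2-fold, as 0.745% of all probes did. No member and no other probe had a Benjamini-Hochberg adjusted limma p under 0.05 (0.00% of all), and the smallest adjusted p of any probe was 0.701. For the other 16 member probes the 95% intervals all included 0, and the widest, those of the BCL2 probes, reached from −1.19 to 1.14.

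The genes around the members were counted in lists chosen by function. Of 49 such genes 43 were tested, 24 with a positive and 19 with a negative log2 fold change (median 0.06). With an unadjusted limma p under 0.05, 1 was higher under the 1α,25(OH)2D3 label, as were 4.00% of all tested probes. By the same rule 2 were lower, as were 2.76% of all tested probes. None passed with Benjamini-Hochberg adjustment. The labelled groups did not overlap for BMF, TNFRSF10B and XIAP, each higher under the 1α,25(OH)2D3 label, as were 7.03% of all tested probes. For BNIP3, BNIP3L and VDAC2 the groups did not overlap in the other direction, which 5.18% of all tested probes showed. TNFRSF10A had no matched probe and is not analysed here.

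Both of the genes that were lower with an unadjusted p under 0.05 were distant BH3 relatives. They came from a list of effectors and BH3-only or BH3-like genes. In that list 9 of 11 were tested, 2 of them positive and 7 negative. BNIP3, a mitochondrial protein of mitophagy that low oxygen induces, read 10.55, 9.93 and 10.23 against 10.94, 13.11 and 10.77. The array labelled vehicle replicate 2 stood far above the rest. The log2 fold change was −1.37 (SE 0.580, limma, unadjusted p = 0.0477), and −0.62 without that array. BNIP3 was the gene of the lists that changed more than 2-fold with an unadjusted p under 0.05, as did 0.745% of all tested probes. It did not without 1α,25(OH)2D3 replicate 1, 2 or 3, where its unadjusted limma p was 0.0660, 0.119 and 0.114. Its close relative BNIP3L read 10.63, 10.69 and 10.71 against 11.22, 11.86 and 10.99, and its groups did not overlap either. The log2 fold change was −0.68 (SE 0.233, limma, unadjusted p = 0.0212) and −0.43 without vehicle replicate 2 (unadjusted p = 0.0519). Without 1α,25(OH)2D3 replicate 1 the unadjusted limma p was 0.0589. Of the 6 epithelial markers, 3 had a positive and 3 a negative log2 fold change. KRT19 had a log2 fold change of −0.75 (limma, unadjusted p = 0.0467) and EPCAM of 0.42 (limma, unadjusted p = 0.190). KRT19 was also highest on vehicle replicate 2, and its part in the result was not tested. Both calls also ended with the methods' t-test. With slide as a block the unadjusted limma p was 0.191 for BNIP3 and 0.118 for BNIP3L. For BNIP3 it was 0.0508 with the replicate block and 0.0861 without the filter on background.

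In the death receptor list 9 of 10 genes were tested, 7 positive and 2 negative. TNFRSF10B, the TRAIL receptor DR5, read 10.53, 10.50 and 10.83 against 10.26, 9.77 and 10.25, and the groups did not overlap. The log2 fold change was 0.53 (SE 0.195, limma, unadjusted p = 0.0285). Without 1α,25(OH)2D3 replicate 3 the unadjusted limma p was 0.0810, and without vehicle replicate 2 it was 0.101. The methods' t-test ended this call too (unadjusted p = 0.0519). TRADD, an adaptor of the receptor for tumor necrosis factor, followed with −0.24 (limma, unadjusted p = 0.185).

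In the other lists no tested gene had an unadjusted p under 0.05, and the values below are from the genes of each list with the lowest p. Among further survival genes 2 of 3 were tested, and BCL2L10 was at 0.44 (limma, unadjusted p = 0.181) and BCL2L2 at −0.01. In caspase activation downstream of mitochondria 9 of 11 were tested, with 4 positive and 5 negative, and the nuclease ENDOG was at −0.25 and the channel VDAC2 at −0.23. All 6 inhibitors of apoptosis were tested, with 4 positive and 2 negative. XIAP, which blocks active caspases, read 6.78, 6.41 and 6.18 against 6.12, 6.13 and 6.01, and its groups did not overlap (log2 fold change 0.37, limma, unadjusted p = 0.0845). BIRC3 was at 1.06, with the highest SE of the named genes of these lists (0.582, limma, unadjusted p = 0.108). Among 8 regulators of the members, 6 were positive and 2 negative. ATF4, a factor of the integrated stress response, was at 0.29 (SE 0.229).

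The pattern of BCL2 over the arrays, high on vehicle replicate 2 and low on vehicle replicate 1, was set beside those of other genes. Likeness was the mean absolute difference over the 6 arrays after each probe was centred on its own mean, over 17727 probes of single protein-coding genes, whose median distance was 0.507. The nearest were ARHGEF26 at 0.161, SLC7A5 at 0.174, TIPIN and CENPP at 0.183, and H3-3B at 0.188. SLC7A5, an amino acid transporter, read 11.31, 11.90 and 11.57 against 10.96, 12.19 and 11.98. The nearest gene, ARHGEF26, read 6.52, 6.98 and 6.55 against 5.85, 7.19 and 6.97. These distances rest on 6 arrays and are a description.

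**Figure D5:**
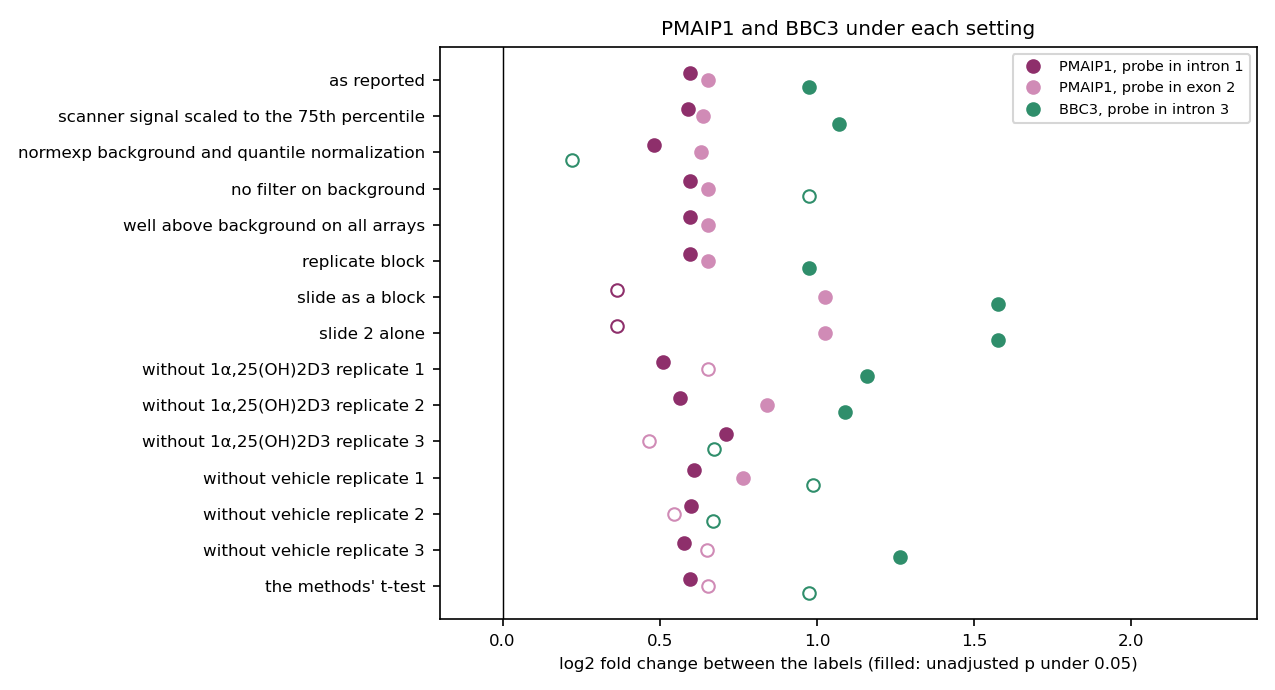
Log2 fold change between the labels of the 2 PMAIP1 probes and the intron 3 probe of BBC3 under each setting (filled, unadjusted p under 0.05; open, not). All values lie above 0, and the PMAIP1 probe in intron 1 is open only where slide is used. The BBC3 probe ranges from 0.22 with normexp to 1.58 within slide 2. It passed the filter only through the label where it was higher, so its values are a description.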

How the data were processed

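Expression was measured with 6 single-color arrays, 3 of the vehicle label and 3 of the 1α,25(OH)2D3 label. The authors scanned them with Agilent Feature Extraction 10.7.1.1, per the submitters' processing notes, and deposited spot intensity on a linear scale with flags for spots well above background. The labels name a mirVana kit and the methods TRIzol for the RNA. The authors also deposited log2 values per probe, whose sorted columns were nearly identical between arrays (quantile normalized). These log2 values were used. On each array 49.1% to 57.5% of probes were well above background, and no spot was saturated. The number of arrays limits the precision.

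Probe sequences of 58 to 60 bases were matched without mismatch to sense transcripts of GENCODE release 44 and placed on hg38 (blastn 2.17.0, Python 3.11.15), and 90604 of 125601 probes matched a transcript. The build of the scanner files' own grid is an older one, and its coordinates were not used. A probe was called well above background where more than 0.5 of its spots were flagged. Labels were compared with limma 3.58.1 in R 4.3.3, without a covariate, and p-values were adjusted by Benjamini-Hochberg over 63336 probes. Thresholds were a fold change above 2 with unadjusted p under 0.05 (the study's results), and an absolute log2 fold change above 2 with adjusted p under 0.05 (its methods). Arrays with 63336 probes were also simulated, with independent normal noise, correct labels and no slide effect. A fold change above 2 with unadjusted limma p under 0.05 recovered 97 of 100 probes changed 4-fold and called 338 unchanged probes. An adjusted limma p under 0.05 alone recovered 69 of the 100. In the deposited arrays CYP24A1 went against labels and slide differed between labels, so these counts do not give the power reached here.

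The main probe of a gene was the brightest that passed the filter. All 10 members were named. From each list of other genes, those past the first threshold were named, otherwise the 2 lowest p. For the member with the widest range the 5 nearest genes were named. KRT19, EPCAM and BMF were named after their values were seen. Some genes of the lists are not reported here by name. Members and lists were chosen with earlier results of these data known. Alternatives were scanner signals scaled to the 75th percentile, normexp correction with an offset of 50, other background filters, the replicate number or slide as a block, slide 2 alone, the methods' t-test, adjustment over protein-coding probes, the mean of a gene's probes, and each array left out. Protein levels were not analysed here.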

Additional observations from a re-analysis of the deposited data

How the results depend on the processing

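The number of arrays, 3 per label, limits the precision, and CYP24A1 went against the labels of 4 arrays. The count of 3 member probes with unadjusted p under 0.05 became 1 with the methods' t-test and 1 to 3 when an array was left out (1 without 1α,25(OH)2D3 replicate 3 or vehicle replicate 2). The count past a fold change of 2 rose from 0 to 1 with the 75th percentile, to 2 with slide as a block and 2 with slide 2 alone, and was 0 to 1 with an array left out (1 without 1α,25(OH)2D3 replicate 1 or 2 or vehicle replicate 3). Among the other pathway genes the count of 3 became 1 with the methods' t-test and 1 to 6 with an array left out (1 without 1α,25(OH)2D3 replicate 1 or vehicle replicate 2, and 6 without vehicle replicate 1). The 1 gene past a fold change of 2 became 0 without the filter, 0 with the replicate block, 0 with the methods' t-test, 2 in slide 2 alone, and 0 to 3 with an array left out (0 without 1α,25(OH)2D3 replicate 1 or 3 or vehicle replicate 2, and 3 without vehicle replicate 1). No setting gave a call by an absolute log2 fold change above 2 with adjusted p under 0.05. That rule also asks for a large fold change, and the adjusted p alone was counted for the main fit only.

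Directions turned only for member probes with no call. With slide as a block and in slide 2 alone they turned for MCL1 (−0.36), BAK1 (−0.11), BCL2L11 (0.12), BID (0.049) and BAD (−0.059). With normexp they turned for BCL2L11 (0.010) and BAD (−0.080). With the mean of all probes they turned for BCL2 (−0.011), BAX (0.056) and BAD (−0.23). With an array left out the ranges were −0.48 to 0.48 for BCL2, −0.31 to 0.12 for BCL2L1, −0.0075 to 0.36 for MCL1, −0.069 to 0.071 for BAX, −0.057 to 0.21 for BAK1, −0.031 to 0.29 for BBC3, −0.063 to 0.10 for BCL2L11, −0.12 to 0.13 for BID and −0.13 to 0.17 for BAD. The cause was not tested. The PMAIP1 probes stayed above 0 in every setting run for them. So did the BBC3 intron 3 probe, but it had passed the filter only through the label where it was higher. Its sign is therefore given as a description.

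Deviations of same-numbered arrays correlated at 0.12, 0.09 and −0.03, and those of differently numbered arrays at −0.25 to 0.19. With 3 arrays per label these values cannot decide whether the replicate numbers pair the arrays. With the replicate block the count of member probes with unadjusted p under 0.05 was 3, and PMAIP1 was at 0.60 (limma, unadjusted p = 0.0135).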
